A study of Mus musculus with 9 samples.

Results

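The orphan nuclear receptors examined here were 10 genes, Nr2e1, Nr2f1, Nr2f2, Nr2f6, Nr1h5, Rora, Rorb, Esrra, Esrrb and Esrrg, out of 54232 genes counted in cochlear ducts of mouse embryos. They were selected on the counts of these same libraries across the 3 genotypes, by which Nr2e1 and other receptors had already been seen to differ, so their values, fold changes and calls are given as a description, with no p-value, and a call on one of them is no independent evidence of a difference. All 10 passed the filter on low counts in each comparison, Nr2e1 only through its WT or Het libraries where null libraries took part. The cochlear ducts came from embryonic day (E) 14.5 littermates of matings between Prdm16 cGT/+ parents kept on the FVB/NJ inbred background. WT embryos carried no gene trap, heterozygotes (Het) carried 1 Prdm16 cGT allele and null embryos carried this allele on both chromosomes, with 3 embryos per genotype and no treatment. Each library held the microdissected ducts of both inner ears of 1 embryo, and the trapped allele was present in every cell of the embryo, not only in the cochlear epithelium. PRDM16 is a zinc finger transcriptional regulator that the study placed in Kölliker's organ, the medial epithelium of the duct next to the future organ of Corti.

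Nuclear receptors are transcription factors that bind DNA through paired zinc fingers, and those whose natural ligand is unknown or uncertain are called orphans. Nr2e1 (Tlx) and the COUP-TF genes Nr2f1, Nr2f2 and Nr2f6 belong to a branch that acts largely as repressors during neural and sensory development. Rora and Rorb bind as monomers and activate their targets, among them genes of the circadian clock. The estrogen-related receptors Esrra, Esrrb and Esrrg control genes of energy metabolism, and Esrrb is known in the inner ear for its part in endolymph production by marginal cells of the stria vascularis and as a human deafness gene. Nr1h5 is a farnesoid X receptor paralog for which lanosterol has been described as an activator in mice.

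The 9 libraries held 24095322 to 30819118 counted reads. Prdm16 itself was at 225, 197 and 184 reads per 1000000 counted reads (CPM) in the WT ducts, 151, 123 and 141 CPM in the Het ducts and 23.7, 19.1 and 27.4 CPM in the null ducts, an order that followed the labels. Xist and Y-linked transcripts placed WT 1, Het 1, null 1 and null 2 as male and the other embryos as female. Markers of periotic mesenchyme summed to 588 CPM in WT 1, 1079 CPM in WT 2 and 1475 CPM in null 3, against 37.0 to 114 CPM in the other 6 libraries, and endothelial markers were high in the same 3 libraries. Cartilage markers reached 12432 CPM in null 3, against 5154 to 6184 CPM in the other 8. No marker of the duct regions (Kölliker's organ, prosensory domain, outer sulcus and roof) was at 0 in any genotype. In bulk RNA, fewer cells of a type and less RNA per cell cannot be told apart.

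In WT ducts the receptors ranged from 4.03 to 543.6 TPM (transcripts per 1000000, a level per length from merged exon lengths), as the plot of WT levels shows. Nr2f1 stood far above the others at 543.6 ± 7.996 TPM (SD, n = 3), higher than 99.5% of detected genes. Nr2f6 followed at 86.3 ± 0.927 TPM and Nr2f2 at 66.7 ± 7.72 TPM, so the COUP-TF genes took the top 3 places. Next came Esrrb at 36.8 ± 6.74 TPM, whose 3 libraries lay above all those of the receptors below it. Nr1h5 (24.5 ± 6.21 TPM), Nr2e1 (15.3 ± 5.93 TPM), Esrra (12.4 ± 0.408 TPM) and Rorb (12.1 ± 0.442 TPM) formed a run in which each gene overlapped its neighbour. Esrrg at 6.05 ± 1.15 TPM and Rora at 4.03 ± 0.341 TPM were the lowest, and their libraries did not overlap. The order depends on the length used: with the longest transcript of each gene, Nr2f2 (103.6 TPM) passed Nr2f6 (88.2 TPM) and Esrra (16.6 TPM) passed Nr2e1 (13.1 TPM), and the other 6 genes kept their places. Exons of Nr2f6 share 1622 bases with Ocel1 and those of Nr2f2 share 643 bases with B130024G19Rik, each on the opposite strand, and the strand setting of the counting was not given in the sources used here. These 2 levels may therefore miss or include reads of the partner gene.

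**Figure D1:**
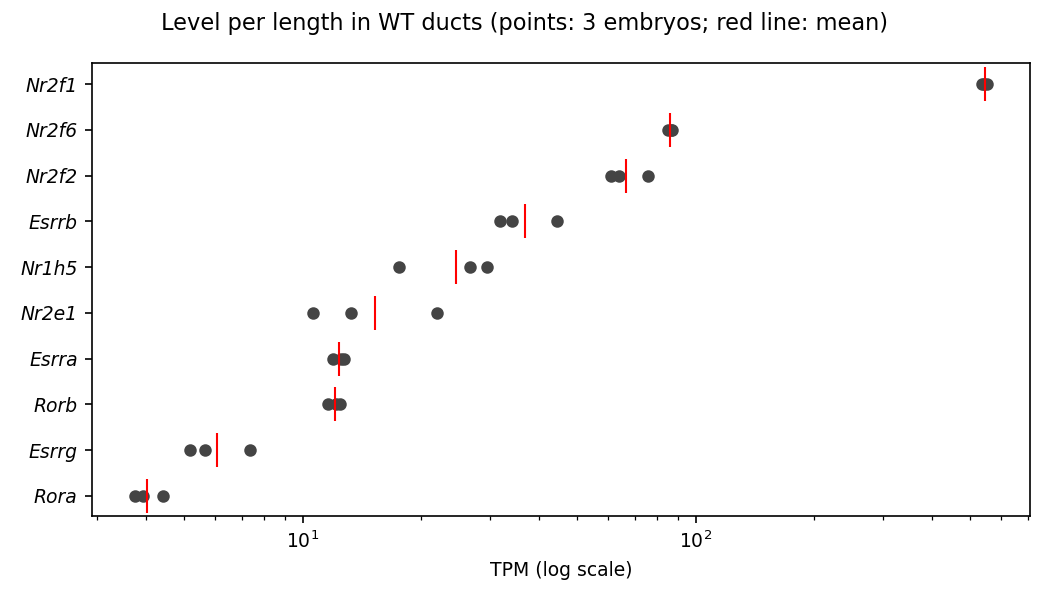
Level per length of the 10 receptors in WT ducts, in TPM on a log axis. Points are the 3 WT embryos and the red line is their mean. Nr2f1 (543.6 TPM) stands apart at the top, Rora (4.03 TPM) is lowest, and the points of Nr1h5, Nr2e1, Esrra and Rorb run into each other.

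Between null and WT ducts the receptors moved in both directions. A gene was called when its Benjamini-Hochberg adjusted p (edgeR quasi-likelihood test over all genes) was under 0.05 and its log2 fold change was beyond 0.5 in size. Nr2e1 and Esrrb were called lower and Rora was called higher, 3 of 10 receptors, and 1.71% of the 17168 genes tested were called in this comparison (0.92% higher, 0.786% lower). WT and null libraries did not overlap for 7 of 10 receptors, Nr2e1, Nr1h5, Esrrb and Nr2f1 being lower and Rora, Esrrg and Esrra higher in the null, and 19% of all tested genes did not overlap (10.1% higher, 8.95% lower). These shares stand beside counts of genes that were listed with the same values in view, and nothing is read from them. The median log2 fold change of the 10 receptors was -0.05, against 0.01 over all genes.

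**Figure D2:**
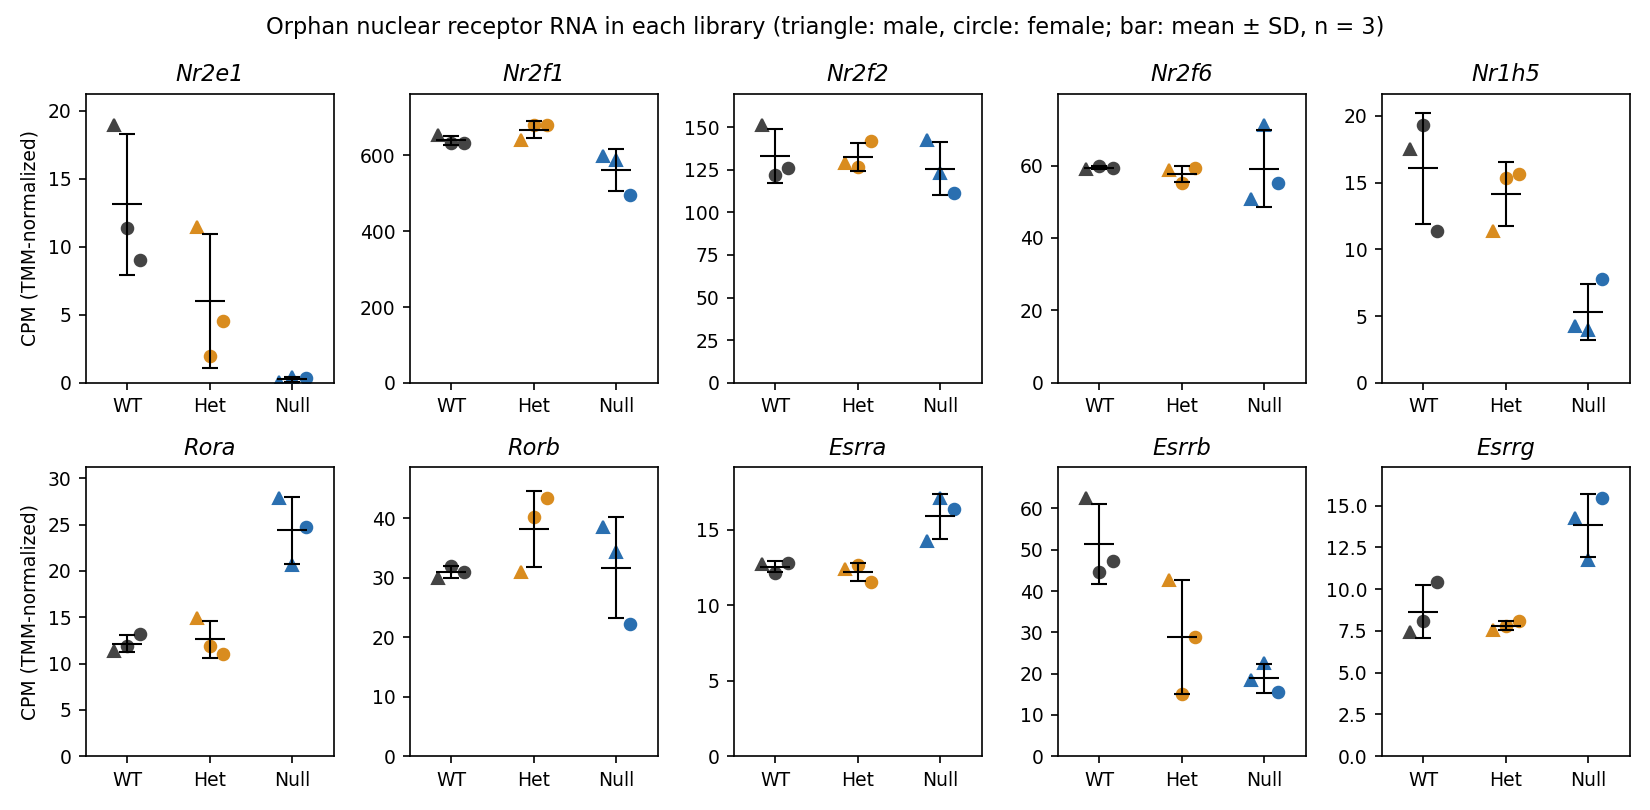
CPM of each receptor in every library, by genotype. Triangles are male and circles female embryos, and the bar is the mean ± SD of 3 embryos. The means of Nr2e1 and Esrrb fall from WT (13.1 and 51.5 CPM) through Het (5.996 and 28.9 CPM) to null (0.265 and 18.9 CPM). Het libraries overlap WT for Nr2e1 and null for Esrrb, and neither gene was called between Het and WT or null and Het. The mean of Rora is higher in the null (24.4 CPM) than in WT (12.2 CPM).

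Nr2e1 (ENSMUSG00000019803, mm10 chr10:42561963-42583632, minus strand) encodes TLX, a repressor best known for keeping neural stem cells dividing and for retinal development. WT ducts held 19.0, 11.4 and 9.05 CPM of Nr2e1 (512, 291 and 267 reads). Null ducts held 0.0412, 0.419 and 0.335 CPM (1, 13 and 8 reads). The null libraries were thus close to the detection limit, and null 1 lay under the floor of 3 reads, which is 0.124 CPM there, with an exact Poisson 95% interval of 0.00104 to 0.230 CPM that covers counting error only. On average the null level was 2.02% of the WT level, a log2 fold change of -5.57 ± 0.57 (standard error, SE). The log2 fold change ran from -5.70 to -5.15 over the 8 alternative settings and from -6.09 to -5.10 with each library left out in turn, and the gene was called in each; these fits reuse the counts on which it was selected and lend it no support. Prdm16 itself had a null mean of 11.6% of the WT mean.

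The Het mean of Nr2e1 lay between those of the other genotypes. They held 11.5, 1.94 and 4.57 CPM (286, 54 and 125 reads), a mean of 5.996 ± 4.92 CPM (SD, n = 3), or 45.6% of WT. Het 1 was above WT 2 and WT 3, while Het 2 and Het 3 were below every WT library, and all 3 were above every null library. The log2 fold change was -1.14 ± 0.50 (SE) for Het against WT and -4.43 ± 0.80 (SE) for null against Het, and neither was called. The first was called only without the filter on low counts (-1.14), and its size rested on Het 1: without that library it was -2.01, and without each of the other 5 in turn it ran from -1.35 to -0.72. The second was called in 5 of 8 alternatives (-4.67 to -4.43 in those 5) and in none of the 6 fits that left out 1 library (-4.96 to -3.56, the latter without Het 1). Sex was uneven among these embryos. The male embryo was the highest for Nr2e1 in WT (19.0 CPM) and in Het (11.5 CPM), so within males the levels ran 19.0, 11.5 and then 0.0412 and 0.419 CPM from WT through Het to null. Within females they ran 11.4 and 9.05, then 1.94 and 4.57, then 0.335 CPM. This split was made after the values were seen. With 1 male in WT and 1 in Het, the part of sex in this spread was not tested. A fit with sex as a term gave -1.31 ± 0.29 (SE) for Het against WT, which was not called, and -4.67 ± 0.69 (SE) for null against Het, which was called.

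The promoter windows of Nr2e1, Nr1h5 and Esrrb, the receptors furthest below WT in the null, and of Rora, the furthest above, are printed here as the promoters of the receptors with the largest differences between null and WT. The 10 receptors had 16 windows of 300 bases in the RefSeq set (build GRCm38.p6, which is mm10), each from 250 bases before to 50 bases after an annotated start. AAGTCA, the hexamer known from DNA binding by TLX, was searched on both strands and is in capitals. It was found in 3 of the 16 windows, those of Nr2e1, of Nr1h5 and of the upstream Esrrb start, always on the strand of the gene, and in 15.1% of all 32851 windows, and nothing is read from it. The other Esrrb window and the windows of the other 7 receptors, lower or higher in the null, held none. In Nr2e1 (chr10:42583541-42583840, minus strand) it began 7 bases past the start site, in Esrrb (chr12:86360867-86361166, plus strand) 144 bases before it, and in Nr1h5 (chr3:102964084-102964383, minus strand) 28 bases before it. The Rora window is chr9:68653536-68653835, plus strand.
Nr2e1: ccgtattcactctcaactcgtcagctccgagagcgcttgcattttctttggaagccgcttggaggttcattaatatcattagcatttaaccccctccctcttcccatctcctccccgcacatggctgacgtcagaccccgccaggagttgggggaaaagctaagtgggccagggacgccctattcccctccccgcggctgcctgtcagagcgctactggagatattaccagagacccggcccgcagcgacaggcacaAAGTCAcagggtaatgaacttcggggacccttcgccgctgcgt
Esrrb: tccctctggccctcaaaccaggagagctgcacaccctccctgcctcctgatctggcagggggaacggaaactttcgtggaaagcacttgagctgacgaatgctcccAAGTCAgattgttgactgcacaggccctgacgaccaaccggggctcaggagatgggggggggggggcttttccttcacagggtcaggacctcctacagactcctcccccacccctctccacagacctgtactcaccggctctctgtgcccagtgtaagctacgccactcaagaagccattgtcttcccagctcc
Nr1h5: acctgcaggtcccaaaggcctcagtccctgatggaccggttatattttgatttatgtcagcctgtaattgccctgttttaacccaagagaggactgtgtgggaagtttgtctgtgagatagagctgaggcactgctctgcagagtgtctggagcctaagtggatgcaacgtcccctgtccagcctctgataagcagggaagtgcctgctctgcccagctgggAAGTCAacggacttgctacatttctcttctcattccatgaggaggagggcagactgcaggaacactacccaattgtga
Rora: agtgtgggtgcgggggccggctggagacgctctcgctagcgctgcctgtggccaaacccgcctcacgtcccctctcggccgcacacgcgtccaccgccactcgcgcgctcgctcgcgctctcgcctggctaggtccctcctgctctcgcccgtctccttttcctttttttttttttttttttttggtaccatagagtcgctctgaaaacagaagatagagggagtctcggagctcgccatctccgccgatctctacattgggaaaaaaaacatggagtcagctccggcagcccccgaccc
The hexamer AGGTCA, common to many nuclear receptors, and 3 longer forms that contain it were searched in the same way. AGGTCA (16.3% of all windows), AAGGTCA (4.72%), GTAGGTCA (0.621%) and TCAAGGTCA (0.423%) were in none of the 16 windows, which says only that these letters are not in these stretches.

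Esrrb (ENSMUSG00000021255, chr12:86361117-86521628, plus strand) was the other receptor called lower. WT ducts held 62.5, 44.6 and 47.3 CPM, Het ducts 42.6, 15.1 and 28.9 CPM, and null ducts 18.4, 22.6 and 15.6 CPM. Every Het and every null library was below every WT library, while Het and null overlapped. The null mean was 36.7% of WT (log2 fold change -1.45 ± 0.18, SE) and the Het mean 56.1% of WT (-0.84 ± 0.29, SE). The gene was called in the null without each library in turn, from -1.59 to -1.28, and in 7 of 8 alternatives. It was lost when the 3 libraries rich in mesenchyme markers were left out (-1.20 ± 0.41, SE), a fit in which WT 3 was the only WT library and was assumed to vary like the other groups. Het against WT was not called, but it was called without the low-count filter (-0.84). Null against Het was -0.61 ± 0.33 (SE) and was not called. As for Nr2e1, the male embryo was the highest in WT and in Het. Melanocyte markers showed the same ranking of groups, their 6 genes summing to 62.2 to 144 CPM in WT, 28.3 to 48.5 CPM in Het and 19.0 to 51.3 CPM in null ducts, with none of 6 called in any comparison. Blood and macrophage markers summed to 24.7 to 73.2 CPM in WT, 10.6 to 16.4 CPM in Het and 19.2 to 36.6 CPM in null ducts, with none called. No marker of either list was at 0 in all libraries, and the part of these cells in the Esrrb difference was not tested. Among the 10 receptors Esrrb was the only one whose WT and Het libraries did not overlap, beside 18% of all genes (8.97% higher, 8.99% lower).

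The paralogs of Esrrb were not lower in the null. Esrrg (ENSMUSG00000026610, chr1:187608791-188214885, plus strand), a receptor of highly oxidative tissues, was at 7.44, 8.11 and 10.4 CPM in WT, 7.54, 7.82 and 8.07 CPM in Het and 14.3, 11.7 and 15.4 CPM in null ducts. All null libraries were above all WT and all Het libraries. The log2 fold change was 0.67 ± 0.18 (SE) against WT and 0.82 ± 0.15 (SE) against Het, and neither was called. DESeq2 called both (0.67 and 0.82), the fit over all 9 libraries called both (0.67 and 0.82), and leaving out null 2 gave a call against Het (0.93). Without the 3 libraries rich in mesenchyme markers the difference from WT was 0.32 ± 0.20 (SE). The only WT library in that fit was WT 3, the highest of the WT libraries for Esrrg. Esrra (ENSMUSG00000024955, chr19:6910977-6921813, minus strand), the family member tied most closely to mitochondrial biogenesis, showed a smaller difference of the same sign. It was at 12.7, 12.1 and 12.8 CPM in WT, 12.4, 12.6 and 11.5 CPM in Het and 14.2, 17.1 and 16.4 CPM in null ducts, so the null libraries were again the 3 highest. Its log2 fold change was 0.34 ± 0.12 (SE) against WT and was not called. Exons of Esrra share 73 bases with Trmt112 on the opposite strand.

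Metabolic genes known as estrogen-related receptor targets were counted as a list. Of 14 listed genes 13 were tested, and 1 was called higher and none lower in the null against WT, with a median log2 fold change of 0.09. The called gene was Pdk4, the kinase that inhibits pyruvate dehydrogenase, at 4.48, 3.88 and 3.66 CPM in WT, 8.11, 6.59 and 4.42 CPM in Het and 13.0, 10.1 and 9.63 CPM in null ducts. WT and null did not overlap, and the log2 fold change was 1.44 ± 0.18 (SE; edgeR, Benjamini-Hochberg adjusted p = 0.00955). This call was lost without WT 1, WT 2 or WT 3 (1.53, 1.42 and 1.38). It was also lost without the mesenchyme-rich libraries (1.66), with WT 3 as the only WT library. Ion transport genes of strial marginal cells gave no call among 7 tested of 8. Slc12a2, the Na-K-Cl cotransporter that loads marginal cells with chloride, was at 202.5 ± 15.97 CPM in WT, 152.1 ± 8.78 CPM in Het and 135.6 ± 20.9 CPM in null ducts (SD, n = 3), with edgeR adjusted p = 0.0593 for null against WT and 0.0465 for Het against WT, where the log2 fold change of -0.41 was under the threshold.

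Rora (ENSMUSG00000032238, chr9:68653786-69388246, plus strand), whose loss causes the staggerer phenotype of cerebellar Purkinje cells, was the receptor called higher. WT ducts held 11.4, 11.9 and 13.2 CPM, Het ducts 14.9, 11.9 and 11.1 CPM, and null ducts 27.8, 20.6 and 24.7 CPM. WT and Het overlapped, Het 1 being above and Het 3 below every WT library, and every null library was above all 6 of them. The null mean was 2.01 times the WT mean, a log2 fold change of 1.00 ± 0.14 (SE), and null against Het was 0.95 ± 0.16 (SE), not called. The size of the difference from WT held, but the call was lost without null 1 (0.89), WT 1 (0.96), WT 2 (0.99) or WT 3 (1.07). The call was also lost without the mesenchyme-rich libraries (0.88), with WT 3 as the only WT library. Against Het Rora was called without null 2 (1.06) or null 3 (0.94), and with DESeq2, no filter and all 9 libraries (0.95 in each). It was also called without the mesenchyme-rich libraries (0.95), a fit that removes only null 3 from these groups.

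Rorb (ENSMUSG00000036192, chr19:18930605-19111196, minus strand), a receptor of retinal and cortical neurons, showed no such step. It was at 29.9, 32.0 and 30.9 CPM in WT, 31.0, 40.2 and 43.3 CPM in Het and 38.4, 34.3 and 22.2 CPM in null ducts. The groups overlapped in every comparison, with a log2 fold change of 0.03 ± 0.19 (SE) for null against WT and 0.30 ± 0.11 (SE) for Het against WT. The lowest null value was that of null 3, the library rich in mesenchyme and cartilage markers. Among 12 clock genes with ROR response elements none was called in any comparison, and the median log2 fold change for null against WT was 0.12 (8 above and 4 below 0).

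Nr1h5 (ENSMUSG00000048938, chr3:102939658-102964133, minus strand) had the second largest log2 fold change of the 10 in the null, and it was not called. The study's own DESeq2 test listed Nr1h5 among its top lower genes. It was at 17.5, 19.3 and 11.4 CPM in WT, 11.4, 15.4 and 15.6 CPM in Het and 4.29, 3.94 and 7.75 CPM in null ducts. All null libraries were below all WT and Het libraries, and WT and Het overlapped. The null mean was 33.1% of WT, a log2 fold change of -1.60 ± 0.31 (SE), and null against Het was -1.41 ± 0.28 (SE). Leaving out null 3, the highest null library, gave a call in both comparisons (-1.97 and -1.78), as did DESeq2 (-1.60 and -1.41). Leaving out the mesenchyme-rich libraries gave -1.47 against WT, with WT 3 as the only WT library. Against Het that fit was called as well (-1.78), but it removed only null 3 from these groups and so nearly repeats the fit without null 3. Of 7 genes of lanosterol synthesis and bile acid response 3 were tested and none was called.

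**Figure D3:**
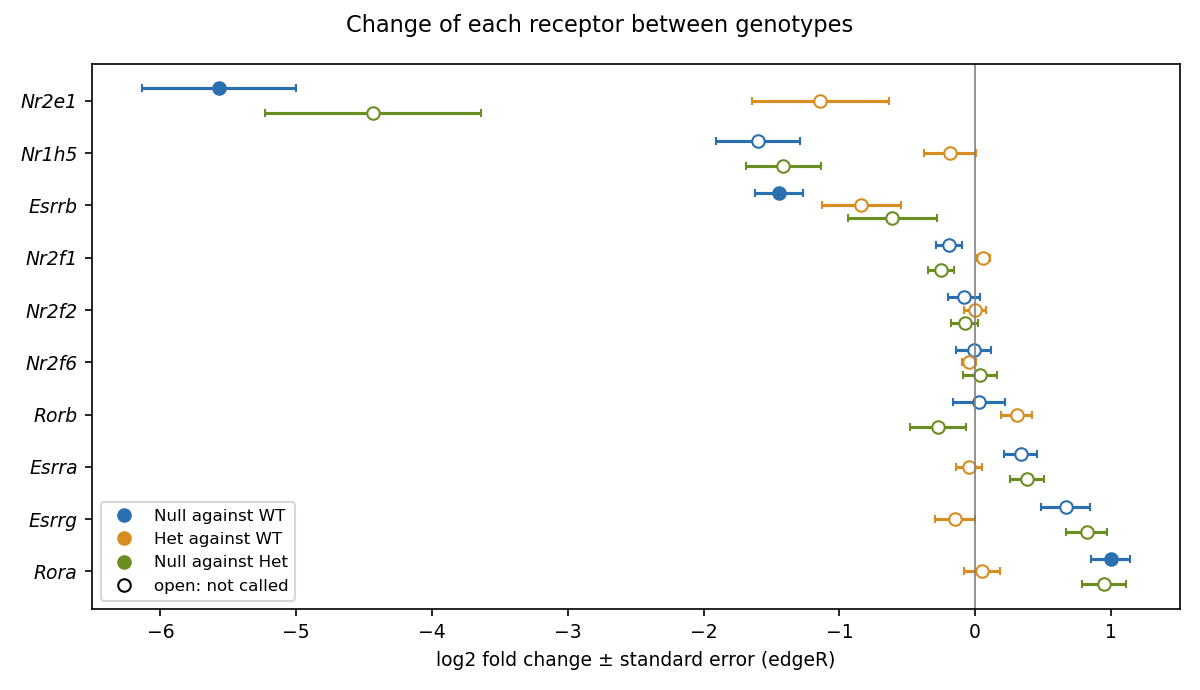
Log2 fold change ± SE of each receptor for null against WT (blue), Het against WT (orange) and null against Het (green); filled points were called and open points were not. Nr2e1 lies at -5.57 for null against WT, Nr1h5 and Esrrb follow at -1.60 and -1.45, and Esrrg and Rora are at the other end at 0.67 and 1.00.

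The COUP-TF genes, the most abundant of the receptors in WT ducts, were not called in any comparison. Nr2f1 (ENSMUSG00000069171, chr13:78188973-78199757, minus strand), required in mice for normal growth of the cochlear duct, was at 653, 632 and 633 CPM in WT, 641, 679 and 680 CPM in Het and 599, 587 and 497 CPM in null ducts. Every null library was below every WT and Het library, yet the difference was small, with a log2 fold change of -0.19 ± 0.10 (SE) against WT and -0.25 ± 0.09 (SE) against Het. Null 3 gave the lowest value, and the difference from WT was -0.11 without it. The antisense gene A830082K12Rik covers 123 exonic bases of Nr2f1. Nr2f2 (ENSMUSG00000030551, chr7:70351944-70366735, minus strand), known for vein identity and mesenchymal development, was at 151, 122 and 126 CPM in WT, 129, 127 and 142 CPM in Het and 143, 123 and 111 CPM in null ducts, and all groups overlapped (-0.08 ± 0.12, SE, for null against WT). Nr2f6 (ENSMUSG00000002393, chr8:71374123-71381960, minus strand), a repressor studied mostly in lymphocytes, was at 59.1, 59.9 and 59.4 CPM in WT, 58.7, 55.2 and 59.4 CPM in Het and 50.9, 71.2 and 55.3 CPM in null ducts. The null libraries scattered to both sides of the narrow WT range, with a log2 fold change of -0.01 ± 0.13 (SE). The differences of Nr2f2, Nr2f6 and Rorb between null and WT changed sign under some alternatives, reaching 0.08, 0.09 and -0.13.

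Compared with WT, no receptor was called in Het ducts, where 0.151% of 17269 genes were called (0.0521% higher, 0.0984% lower). DESeq2 called none of the receptors either, beside 1.73% of all genes. Between null and Het ducts none was called in the main test, where 0.615% of 17067 genes were called (0.293% higher, 0.322% lower). There DESeq2 called 2 higher (Rora and Esrrg) and 2 lower (Nr2e1 and Nr1h5), beside 1.96% of all genes. Nothing is read from these counts either. Null and Het libraries did not overlap for 6 of 10 receptors, against 18.2% of all genes (9.06% higher, 9.09% lower). The Het mean lay between the WT and null means for 5 of 10 receptors, Nr2e1, Nr2f2, Nr1h5, Rora and Esrrb, as it did for 38.8% of 17797 genes. Among these 5, the Het mean was 45.6% of WT for Nr2e1, 56.1% for Esrrb, 87.9% for Nr1h5, 99.8% for Nr2f2 and 103.8% for Rora, and Het and WT libraries overlapped for all of them but Esrrb. Prdm16 in Het ducts was 68.5% of WT. The 3 comparisons share libraries and are not independent of each other.

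Among the other nuclear receptors, 39 were listed and 27 tested, and in the null against WT none was called higher and 1 was called lower. All 9 tested orphans of that list were uncalled, including the Nr4a genes, Nr2c1 and Nr2c2. The called gene was Thrb, a thyroid hormone receptor needed for hearing, at 157, 142 and 143 CPM in WT, 145, 129 and 151 CPM in Het and 100.1, 82.6 and 75.1 CPM in null ducts. Its log2 fold change was -0.78 ± 0.11 (SE, edgeR adjusted p = 0.0163) against WT and -0.72 ± 0.12 (SE, edgeR adjusted p = 0.0431) against Het. The call against WT was lost without null 2, WT 1, WT 2 or WT 3 (-0.80 to -0.73). It was also lost without the mesenchyme-rich libraries (-0.64), with WT 3 as the only WT library. Against Het the call was lost without Het 1, Het 2, Het 3 or null 2 (-0.78 to -0.67). The study also reported lower Thrb in the null by quantitative PCR. Of 27 coregulators, which link receptors to chromatin enzymes, all were tested and none was called in any comparison, with a median log2 fold change of -0.04 for null against WT. Of 8 genes described as Nr2e1 targets in neural stem cells, 1 was called higher in the null, the glial calcium-binding gene S100b, at 2.92, 3.61 and 4.81 CPM in WT, 5.62, 3.85 and 4.06 CPM in Het and 12.5, 12.2 and 25.4 CPM in null ducts (2.13 ± 0.34, SE; edgeR adjusted p = 0.0241). This call was lost without WT 1, WT 2 or WT 3 (1.98, 2.11 and 2.35). Null 3, rich in mesenchyme markers, was the highest for S100b. Without the mesenchyme-rich libraries the log2 fold change of S100b was 1.36, with WT 3 as the only WT library. Cdkn1a, which Nr2e1 represses in those cells, was not called. Together the lists outside the 10 receptors and the cell type markers held 112 genes, of which 95 were tested, 2 called higher and 1 lower; Thrb, Pdk4 and S100b were known from these same libraries when the lists were written and are no independent evidence.

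Marker sums of the duct regions are set beside the receptors, since some of them differed between genotypes too. The 10 markers of Kölliker's organ were a part of the study's single-cell list. That list also holds Tectb, which the study reported as higher in the null. The 10 summed to 3900 to 4780 CPM in WT, 3727 to 4637 CPM in Het and 2167 to 2469 CPM in null ducts. Of them 8 were called lower in the null against WT, beside 0.786% of all genes. The study had already reported most of these 8 as lower from the same libraries, so these calls are no independent evidence. The null mean of the Kölliker's organ sum, in which abundant markers weigh most, was 54.3% of WT. Those of Nr2e1, Nr1h5 and Esrrb were 2.02%, 33.1% and 36.7%. Single markers differed from the sum, with a median log2 fold change of -1.04 over the 10. In the study's own fold changes, Efhd1, Clic6 and Snap91 fell further than Nr1h5 and Esrrb. In Het ducts the sum stayed at 96.9% of WT, while Nr2e1 and Esrrb were at 45.6% and 56.1%. Roof markers summed to 8404 to 9844 CPM in WT, 10032 to 10577 CPM in Het and 11294 to 14697 CPM in null ducts (139.4% of WT in the null, with none of 10 called), beside 200.7% for Rora and 159.5% for Esrrg. Prosensory markers summed to 961 to 1053 CPM in WT, 1198 to 1207 CPM in Het and 1163 to 1453 CPM in null ducts. Of these 10, 3 were called higher in the null against WT, beside 0.92% of all genes. They were Fgf20, Lfng and Cdkn1b, which the study had already named as higher from the same libraries. Outer sulcus markers summed to 2039 to 2295 CPM in WT, 2146 to 2427 CPM in Het and 2151 to 3094 CPM in null ducts (123.8% of WT in the null, with none of 8 called). Which regions of the duct gave the receptor reads was not measured in these bulk libraries, and the study's single-cell data were not used here to place the receptors. The part of these marker differences in the receptor differences was not tested.

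**Figure D4:**
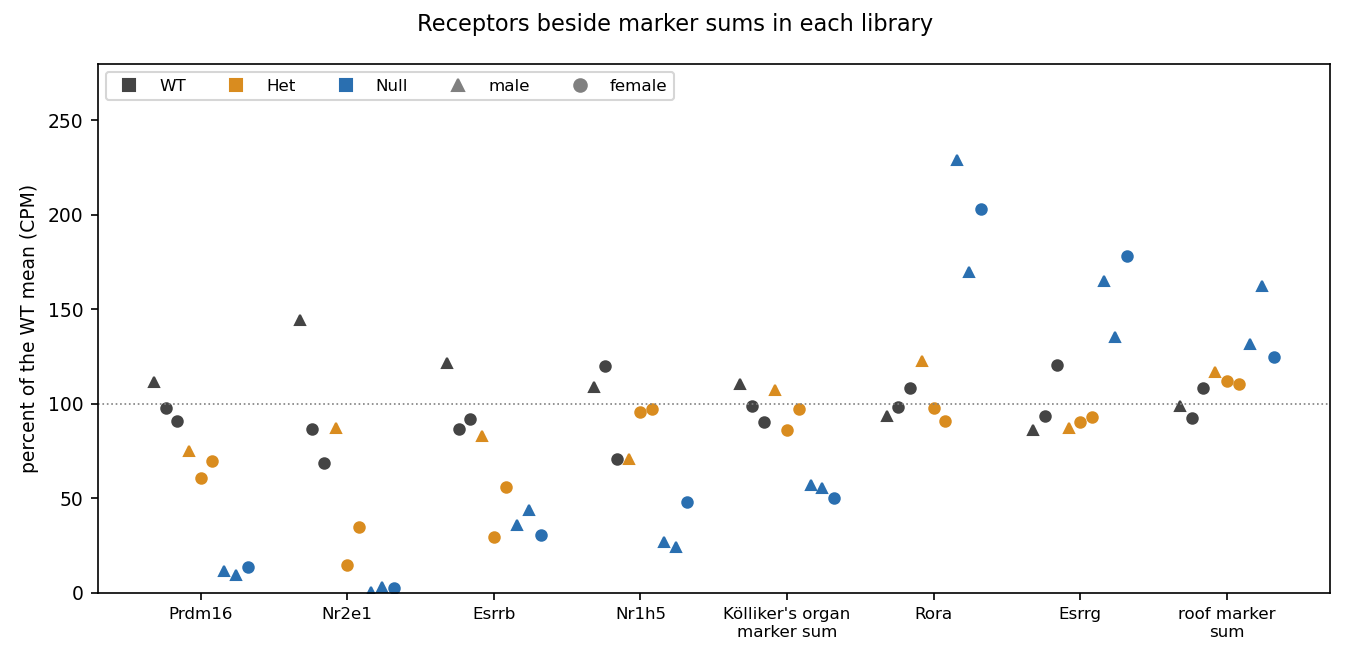
Level in each library as percent of the WT mean, in CPM, for Prdm16, 5 receptors and the summed markers of Kölliker's organ and of the roof. Colours are genotypes, triangles males and circles females. Null libraries of Nr2e1 sit at the bottom, far under the null level of the Kölliker's organ marker sum (mean 54.3%), in which abundant markers weigh most. Rora and Esrrg are above the roof marker sum (139.4%) on average.

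Genes whose log-scale level followed that of a called receptor most closely over the 9 libraries were named by Pearson r among 17797 genes, as a description of libraries that share genotype. For Nr2e1 they were Tmem132c (r = 0.987), Tmem30b (0.982), Cpxm2 (0.982), Mia (0.978) and Upp1 (0.977). Upp1, uridine phosphorylase, showed a similar near loss, from 20.7 CPM in WT through 11.4 CPM in Het to 1.26 CPM in null ducts, while the other 4 kept much more of their WT level, Tmem132c going from 260.3 CPM in WT to 163 CPM in the null. For Esrrb the closest were Gm44645 (0.982), Hes5 (0.962), Pcsk6 (0.960), Susd1 (0.957) and Sowaha (0.949), of which Hes5, a Notch target, averaged only 0.592 CPM in WT. For Rora they were Rims2 (0.979), Trp53inp2 (0.972), Chst5 (0.964), Gm45889 (0.959) and Tmem178 (0.957). With each genotype's mean removed, r for these was 0.829, 0.849, 0.623, 0.704 and 0.455 in the same order. By that measure it ran from 0.834 to 0.982 for the Nr2e1 genes and from 0.867 to 0.986 for the Esrrb genes. Rims2, a scaffold of the presynaptic active zone, went from 10.4 CPM in WT to 21.7 CPM in the null, and Chst5, a carbohydrate sulfotransferase, from 6.37 to 40.7 CPM.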

How the data were processed

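Cochlear ducts of 9 E14.5 embryos (3 WT, 3 Het and 3 null) were profiled by bulk mRNA sequencing, 1 library per embryo. The authors deposited raw read counts per Ensembl gene, aligned to mm10; the submitters' processing notes name cutadapt 1.13, STAR, HTSeq 0.6.1p1 and DESeq2. The strand setting and the annotation release were not given in the sources used here. Of 54232 genes, 54079 were matched to a symbol in GENCODE M21. Counts were tested pairwise over 6 libraries with edgeR 4.0.16 (R 4.3.3, limma 3.58.1): TMM scaling, a minimum count of 10 (filterByExpr) and the quasi-likelihood test with Benjamini-Hochberg adjustment over all genes. A check on simulated counts covered null against WT only, with changes set in well-counted genes and not in genes near the floor. DESeq2 1.42.0 was an alternative, beside other scaling, no filter, all 9 libraries in 1 fit, a replicate block, a sex term, leaving out the libraries above 500 CPM of mesenchyme markers, the adjusted p alone, and each library left out; the sex term and the mesenchyme limit were added after the data were seen. The fit without the mesenchyme-rich libraries held all genotypes and kept WT 3 as the only WT library. CPM and TPM were computed from the counts. Sex was read from Xist and Y-linked genes.

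The receptors and the gene lists were chosen with earlier results of these data known. Named genes were the 10 receptors in every library, Prdm16, each listed gene that was called (otherwise up to 4 examples with the smallest p), and the 5 genes with the highest Pearson r of log2 CPM (prior count 2) for Nr2e1, Esrrb and Rora. The Nr4a and Nr2c genes, Cdkn1a and Slc12a2 were named with their values known. Promoter sequences came from RefSeq.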

Additional observations from a re-analysis of the deposited data

How the results depend on the processing

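With 3 embryos per genotype, Nr2e1 in null ducts rested on 1 to 13 reads per library, so its remaining level is known only to within counting error. Of the calls on the receptors, those of Nr2e1 and Esrrb in the null against WT were made without each library in turn, and that of Rora was not. Where causes of a change with the setting are not named, the cause was not tested.

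Over all genes, null against WT gave 158 higher and 135 lower calls. DESeq2 gave 333 and 285, no filter 267 and 209, and all 9 libraries in 1 fit 260 and 208. Without the mesenchyme-rich libraries, 85 were called higher and 123 lower. More genes were lower than higher there, without null 3 (214 and 232), without WT 1 (37 and 41), without WT 2 (31 and 37) and with the replicate block, unlike in the main test. With each library left out in turn the counts ran from 31 to 214 higher and from 37 to 232 lower. Receptors called higher were 1 in the main test, 2 with DESeq2 and with all 9 libraries, 0 without the mesenchyme-rich libraries and 0 to 1 with a library left out; those called lower were 2 in the main test, 3 with DESeq2, with no filter and with all 9 libraries, 2 under the other settings, and 2 to 3 with a library left out.

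Het against WT gave 9 higher and 17 lower calls over all genes. DESeq2 gave 48 and 270, no filter 109 and 575, all 9 libraries 0 and 0, the sex term 19 and 34, and the fit without the mesenchyme-rich libraries 3 and 11; the adjusted p alone gave 22 higher. With a library left out the counts ran from 0 to 47 higher and from 0 to 458 lower. No receptor was called in the main test, 2 were called lower with no filter, and 0 to 0 with a library left out.

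Null against Het gave 50 higher and 55 lower calls over all genes. DESeq2 gave 196 and 161, no filter 227 and 139, all 9 libraries 79 and 85, and the fit without the mesenchyme-rich libraries 86 and 115. With a library left out the counts ran from 5 to 81 higher and from 6 to 101 lower. Receptors called higher were 0 in the main test, 2 with DESeq2, with no filter and with all 9 libraries, 1 without the mesenchyme-rich libraries and 0 to 2 with a library left out. Receptors called lower were 0 in the main test, 2 under each of those 4 settings and with the sex term, and 0 to 1 with a library left out.

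The replicate numbers share only a number: deviations of same-numbered libraries correlated at 0.005, -0.14 and -0.28 between null and WT, 0.20, 0.11 and -0.06 between Het and WT, and 0.14, -0.12 and 0.08 between null and Het. A replicate block gave 65 higher and 68 lower calls for null against WT, 32 and 165 for Het against WT, and 22 and 30 for null against Het. With the block Rora was not called (0.99), leaving 0 receptors higher for null against WT, Esrrb was called lower for Het against WT (-0.92), 1 receptor, and Thrb was not called for null against Het (-0.73).

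With longest transcripts 6 of 10 receptors kept their place in the order of WT levels.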
